A study of Mus musculus with 32 samples.

Results

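S49 (Bcl-2) cells left in culture with vehicle for 48 h were compared with the same cells after 24 h, so that the only labelled difference was 24 h more in culture without dexamethasone (dex). The comparison used 8 of the 32 libraries of the series, the 4 control libraries at 48 h and the 4 control libraries at 24 h, which were chosen by their labels alone. S49.1 is an immature T-cell lymphoma line of the mouse that glucocorticoids kill readily. Both lines carry a retroviral G418 (neomycin) resistance gene, S49 (Bcl-2) cells carry the Bcl-2 proto-oncogene as well, and S49 (Neo) cells do not. Other groups used below are S49 (Bcl-2) cells given 250 nM dex for 48 h and for 24 h, and S49 (Neo) controls at 48 h and at 24 h, with 4 libraries in each. All cells grew in RPMI-1640 with fetal calf serum, and poly(A)-enriched RNA was sequenced. Whether seeding, feeding, cell density, harvest or library preparation went along with the time point is not given in the sources used here, and these cannot be told apart from time. The sources also do not say whether replicates came from separate cultures, so p-values measure the spread between these libraries, which may be technical.

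As background, mammalian cells answer low oxygen through the Hif factors, low amino acids through the transcription factor Atf4, low sterols through the Srebp factors and weak growth signals through the Foxo factors. Cells that grow more slowly make fewer ribosomes, a programme driven in large part by Myc. Each of these responses is known from a set of target genes, and these sets order the results below.

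Values are deposited log2 normalized values, and a difference of 1 is taken as a 2-fold change on that scale. Testing was limited to the 11518 genes whose mean over the 8 libraries reached 3.46, the log2 of 10 reads plus 1. A gene was called higher or lower at 48 h when limma's moderated test gave a Benjamini-Hochberg adjusted p under 0.05. By this rule 3800 genes were higher at 48 h (33% of those tested) and 3620 were lower (31.4%). The median change over all genes tested was 0.01, and most changes were small, with a median size of 0.21. A change of at least 1 in size was called in 332 genes, of which 306 were higher and 26 lower. The 4 libraries at 48 h and the 4 at 24 h did not overlap in 6943 of the genes tested (60.3%). Of the 7420 genes called, 6359 were called in every one of the 8 fits that left out 1 library. A fit over all 16 S49 (Bcl-2) libraries, which adds the dex libraries to the estimate of the spread, called 4567 genes, and 7574 once 24 h dex replicate 3, which lay far from its group, was left out (an alternative chosen after seeing the data). Among the genes named below, Mcl1, Nr3c1, Xiap, Orc2, Rb1, Cdc20, Espl1, Ube2c, Pttg1, Psma2, Rpl19 and Mphosph10 were not called in the fit over 16, with adjusted p of 0.067 to 0.579, but each was called without that library. In bulk RNA a lower value can come from fewer cells of a type or from less RNA per cell, which cannot be told apart.

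The libraries of one time point were not alike. The first principal component held 85% of the variance and separated the times. Placed on a line from the mean of the 24 h libraries at -0.5 to the mean of the 48 h libraries at 0.5, each time without the library itself, the 48 h libraries lay at 0.13, 0.34, 0.60 and 0.94 (replicates 1 to 4) and the 24 h libraries at -0.62, -0.61, -0.49 and -0.21. Replicate 1 at 48 h therefore lay nearest to the 24 h libraries and replicate 4 at 24 h nearest to the 48 h libraries, with no overlap. Without 48 h replicate 1, 7546 genes were called, and without 24 h replicate 4, 7248. One further library, 24 h replicate 2, had 20.02 for Rn45s, the precursor of ribosomal RNA, against 16.86 to 17.86 in the other 7, and 6851 genes were called without it.

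Cell identity was checked with markers. Of 8 T cell genes 7 passed the filter on low values and Cd5 did not, and their summed level was 16.11 to 16.21 at 48 h, against 16.43 to 16.49 at 24 h. The B cell genes Ms4a1, Cd79a, Cd79b, Pax5 and Ebf1 were below the filter, as were Csf1r, Adgre1, Lyz1 and Mpo of myeloid cells, Col1a1 and Epcam of stromal and epithelial cells and the hemoglobin genes. Others passed it, 5 of the 12 B cell genes and 5 of the 14 macrophage and granulocyte genes. So did 2 of the 13 stromal, endothelial and epithelial genes and 3 of the 11 erythroid and platelet genes. Highest in these lists were Vpreb3 (mean of the 8 libraries 6.18), Itgam (9.38), Pecam1 (10.14) and Itga2b (7.89). The summed levels of these lists were higher at 48 h. They were 7.83 to 8.53 against 7.39 to 7.69 at 24 h for the 12 B cell genes, 10.21 to 10.27 against 9.61 to 9.93 for the 14 macrophage and granulocyte genes, 10.36 to 10.48 against 9.82 to 10.08 for the 13 stromal, endothelial and epithelial genes, and 8.33 to 8.56 against 7.99 to 8.22 for the 11 erythroid and platelet genes. Their part in the changes below was not tested. The reads counted under Bcl2, which cannot be split here between the introduced and the native gene, gave 10.68 to 10.92 at 48 h and 10.48 to 10.72 at 24 h, against 8.41 to 8.60 in S49 (Neo) controls at 48 h and 7.83 to 8.07 at 24 h.

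Genes that low oxygen induces were the group with the largest median rise among the 20 lists described, of 42 counted. Of 24 hypoxia targets tested, 22 were higher at 48 h (91.7%), none was lower, and the median change was 0.98. Ndrg1, a stress-induced gene of the cytoplasm, had 12.20, 12.28, 12.31 and 13.14 in the 48 h libraries, against 9.97, 8.79, 9.82 and 11.43 in the 24 h libraries. The groups did not overlap, which was a condition of the rule that named this gene. Replicate 4 was highest at both times, and the change was 2.48 ± 0.46 (SE, adjusted p = 0.00107, limma). Adm, which encodes the vessel-dilating peptide adrenomedullin, had 8.81, 8.74, 8.26 and 9.28 at 48 h, against 6.60, 5.64, 6.25 and 7.38 at 24 h, a change of 2.30 ± 0.33. Vegfa, the growth factor of blood vessels, had 10.68, 11.07, 11.04 and 11.24 at 48 h, against 9.58, 9.46, 9.71 and 10.03 at 24 h. Its groups lay further apart than either spread, with a change of 1.32 ± 0.14 (adjusted p = 0.000177, limma). Ero1l, an oxidase that helps proteins fold in the endoplasmic reticulum, changed by 1.77 ± 0.19, and Bhlhe40, a transcriptional repressor, by 1.59 ± 0.17.

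Most genes of glucose use were higher too, in a list that shares members such as Pfkfb3 and Pfkfb4 with the hypoxia targets. Of 23 genes of glycolysis and glucose uptake, 19 were higher at 48 h (82.6%) and 3 lower (median 0.64). Slc2a3, the glucose transporter Glut3, had 12.49, 12.84, 12.92 and 13.57 at 48 h, against 10.47, 10.28, 10.59 and 11.43 at 24 h. This was a 4.79-fold higher level (2.26 ± 0.27 on the log2 scale, adjusted p = 0.000195, limma), and again replicate 4 was highest at both times. Aldoc, an aldolase of glycolysis, had 10.30, 10.87, 11.24 and 11.49 at 48 h, against 7.83, 7.39, 8.26 and 9.37 at 24 h, the third largest rise among the genes named here. Pfkp, the platelet form of phosphofructokinase, changed by 1.13 ± 0.14. Pfkfb3 and Pfkfb4, which make the activator of that enzyme and are also Hif targets, changed by 0.99 ± 0.12 and 0.64 ± 0.06. The 250 bases before the start of Pfkfb3 are shown because this gene was named by the rule and its promoter holds the core of the hypoxia response element, ACGTG (in capitals; minus strand, chr2:11553930-11554179, GRCm38.p6, RefSeq).
Pfkfb3: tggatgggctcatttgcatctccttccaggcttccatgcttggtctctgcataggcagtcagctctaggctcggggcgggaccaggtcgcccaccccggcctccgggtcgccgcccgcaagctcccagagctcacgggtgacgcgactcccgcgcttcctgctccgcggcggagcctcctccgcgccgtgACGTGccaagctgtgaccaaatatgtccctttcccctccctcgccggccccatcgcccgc
The match lay 60 bases before the start. ACGTG was searched on both strands in the 250 bases before the start of each gene, and it overlaps the E-box CACGTG. Promoters of 20 of the 24 hypoxia targets were matched by symbol and 10 held it (50%), against 22.3% of the 8876 promoters of genes tested and 16.6% of all 27025 promoters. A match is a sequence of letters and not a measured binding site.

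Sterol synthesis genes rose almost without exception. Of 24 genes of cholesterol synthesis and uptake, 23 were higher at 48 h (95.8%), none was lower, and the median change was 0.88. Hmgcs1, which makes the HMG-CoA from which sterols are built, had 15.09, 15.33, 15.52 and 15.47 at 48 h, against 13.89, 14.03, 14.21 and 14.34 at 24 h. All 48 h values lay above all 24 h values, and the level was 2.35-fold higher (1.24 ± 0.11 on the log2 scale, adjusted p = 0.000177, limma). Lss, the lanosterol synthase, had 14.35, 14.84, 14.99 and 14.92 at 48 h, against 13.21, 13.25, 13.51 and 13.64 at 24 h, a change of 1.37 ± 0.14. Tm7sf2, a sterol reductase, changed by 1.07 ± 0.09, and Stard4, a carrier of cholesterol between membranes, by 0.89 ± 0.06. Of 15 genes of fatty acid synthesis, 10 were higher (66.7%) and 2 lower. Among them Scd1, a desaturase that makes monounsaturated fatty acids, had 12.96, 13.34, 13.62 and 13.69 at 48 h, against 11.33, 11.35, 11.67 and 11.89 at 24 h. The related Scd2, one of the most abundant genes named here, changed by 1.09 ± 0.08, the acyl-CoA ligase Acsl3 by 0.78 ± 0.08 and the desaturase Fads2 by 1.03 ± 0.12. Hmgcs1 was the one cholesterol gene, of 17 whose promoter was matched, with the sterol regulatory element TCACNCCAC in these 250 bases (plus strand, chr13:119690101-119690350, GRCm38.p6, RefSeq).
Hmgcs1: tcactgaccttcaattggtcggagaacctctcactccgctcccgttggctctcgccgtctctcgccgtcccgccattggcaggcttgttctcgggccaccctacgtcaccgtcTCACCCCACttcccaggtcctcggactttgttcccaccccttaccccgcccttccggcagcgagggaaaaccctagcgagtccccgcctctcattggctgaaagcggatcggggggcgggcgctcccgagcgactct
The element, in capitals, lay 137 bases before the start. It was in 5.88% of the promoters of this list, against 0.969% of those of genes tested and 1.04% of all.

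Targets of Atf4, which cells use when amino acids run short, were higher in 30 of 35 cases (85.7%) and lower in 1, with a median of 0.60. Trib3, a pseudokinase that Atf4 induces, had 11.64, 12.21, 12.47 and 12.58 at 48 h, against 10.00, 9.84, 10.13 and 10.18 at 24 h. The level was 4.54-fold higher (2.18 ± 0.18 on the log2 scale, adjusted p = 0.000177, limma), and the lowest 48 h value, in replicate 1, lay well above every 24 h value. Cth, which makes cysteine from cystathionine, had 11.002, 11.25, 11.34 and 11.33 at 48 h, against 9.55, 9.71, 9.88 and 9.75 at 24 h. Its change of 1.51 ± 0.09 carried the smallest adjusted p of the genes named here (6.47e-05, limma). Chac1, which breaks down glutathione, changed by 1.28 ± 0.11, and Eif4ebp1, an inhibitor of cap-dependent translation, by 0.58 ± 0.05. Chac1 is shown because its promoter holds the C/EBP-Atf response element TGATGNAA, here on the opposite strand (capitals; gene on the plus strand, chr2:119350992-119351241, GRCm38.p6, RefSeq).
Chac1: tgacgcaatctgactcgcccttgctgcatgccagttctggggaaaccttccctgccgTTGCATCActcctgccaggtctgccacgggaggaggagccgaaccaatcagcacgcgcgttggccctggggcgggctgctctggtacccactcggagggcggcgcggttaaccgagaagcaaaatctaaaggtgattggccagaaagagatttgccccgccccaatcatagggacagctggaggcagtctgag
The match began 193 bases before the start. The element was in 6 of 30 promoters of the list (20%), against 1.87% of those of genes tested and 3.53% of all.

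Genes that interferon induces were higher in 36 of 44 cases (81.8%) and lower in 2, with a median of 0.56. Gbp2, a guanylate-binding protein of host defence, had 7.94, 8.18, 8.62 and 8.63 at 48 h, against 6.04, 5.94, 6.04 and 7.04 at 24 h. The groups did not overlap, but 24 h replicate 4 stood well above the rest of its group. Its change was 2.07 ± 0.25 (adjusted p = 0.000197, limma). Irf7, a factor that switches on interferon genes, had 6.62, 6.79, 7.10 and 7.25 at 48 h, against 5.35, 5.42, 5.48 and 5.56 at 24 h, a change of 1.48 ± 0.13. Parp14 and Parp9, interferon-induced ADP-ribosyltransferases, changed by 0.73 ± 0.07 and 0.44 ± 0.05, and Rtp4, an interferon-induced chaperone of receptors, by 1.11 ± 0.12 at a low level. The promoter of Gbp2 is shown for its interferon-stimulated response element GAAANNGAAA, on the opposite strand (capitals; gene on the plus strand, chr3:142620413-142620662, GRCm38.p6, RefSeq).
Gbp2: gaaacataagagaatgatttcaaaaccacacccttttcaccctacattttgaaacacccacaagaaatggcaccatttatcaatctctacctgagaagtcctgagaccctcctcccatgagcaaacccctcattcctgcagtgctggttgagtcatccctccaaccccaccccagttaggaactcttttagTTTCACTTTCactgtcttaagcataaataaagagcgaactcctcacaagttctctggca
The match began 59 bases before the start. The element was in 15 of 33 promoters of the list (45.5%), against 2.61% of those of genes tested and 3.04% of all.

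**Figure D1:**
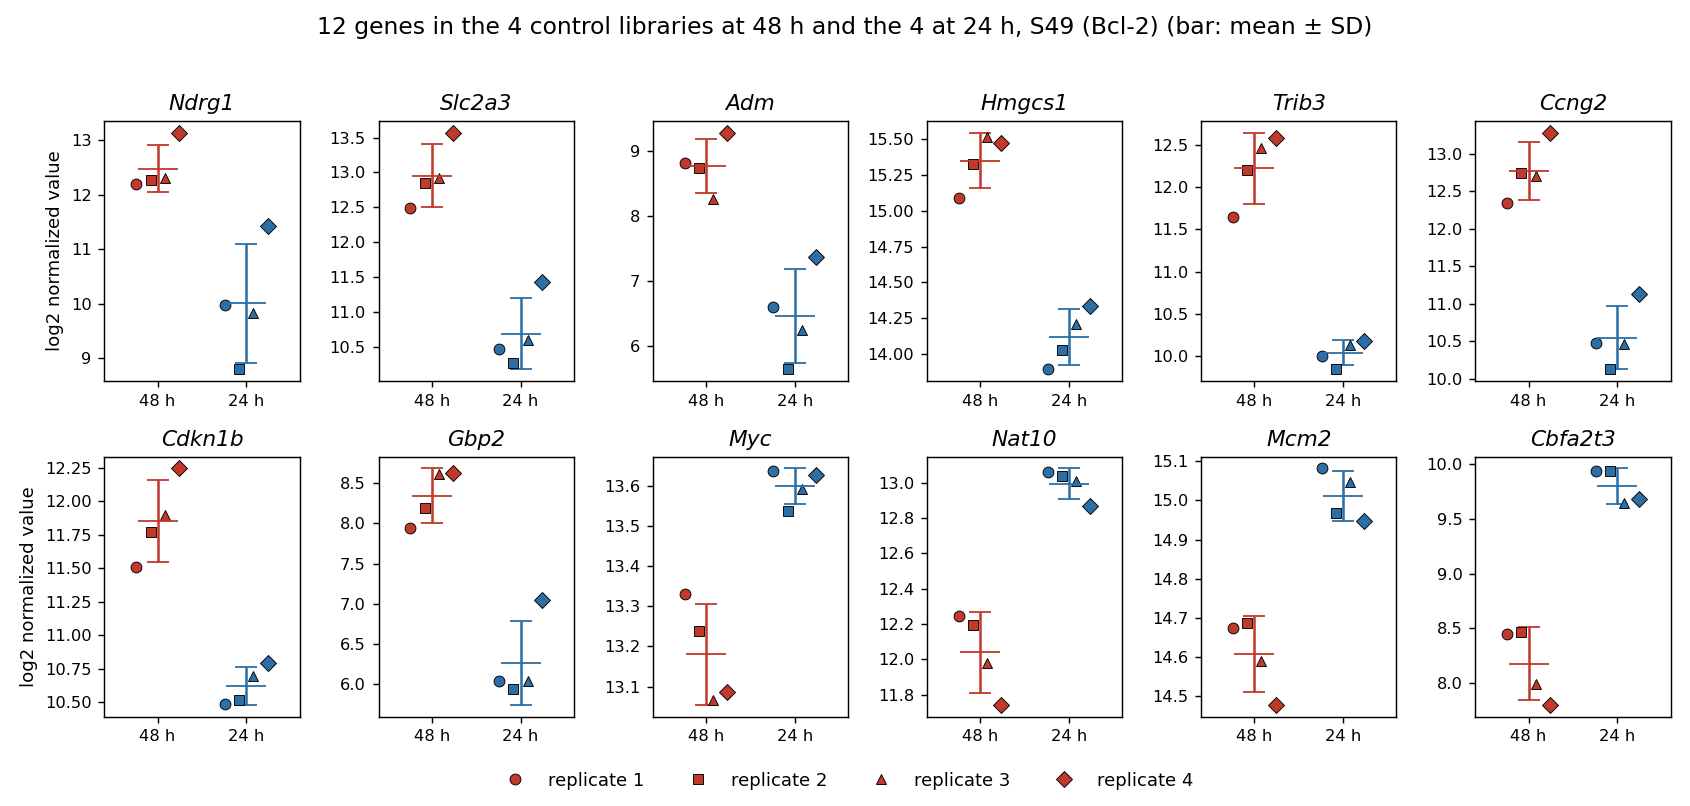
Log2 normalized values of 12 genes in the S49 (Bcl-2) control libraries at 48 h (left, red) and 24 h (right, blue); each symbol is 1 library and the bars give the mean and SD of 4. In each of the 12 panels the 48 h and the 24 h libraries do not overlap, as in 60.3% of all genes tested. Ndrg1, Slc2a3, Adm, Ccng2 and Cbfa2t3 were named by a rule that required this. Replicate 4 at 24 h is the 24 h library nearest to the 48 h values in all panels but those of Myc and Cbfa2t3.

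Signals of growth and of rest changed in both directions. Of 20 immediate early genes, 16 were higher at 48 h (80%) and 3 lower (median 0.95). Ier3, a gene that growth factors and stress induce, had 9.71, 10.35, 10.25 and 10.93 at 48 h, against 7.73, 7.45, 8.15 and 8.40 at 24 h, a change of 2.38 ± 0.26. Maff, a small leucine zipper factor, changed by 1.83 ± 0.20. Fos, the classical member of this class, had 8.65, 9.28, 9.28 and 10.33 at 48 h, against 7.60, 6.65, 7.87 and 8.97 at 24 h. Here the groups overlapped, since 24 h replicate 4 lay above 48 h replicate 1, and the change of 1.62 ± 0.46 had an adjusted p of 0.0114 (limma). Without a filter on low values it missed the threshold (adjusted p = 0.0831). Dusp2, a nuclear phosphatase that switches off MAP kinases, was lower, by -0.73 ± 0.07. Myc, the driver of cell growth and ribosome synthesis, had 13.33, 13.24, 13.07 and 13.09 at 48 h, against 13.64, 13.54, 13.59 and 13.63 at 24 h. Every 48 h value lay below every 24 h value, a change of -0.42 ± 0.06 (adjusted p = 0.000266, limma).

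Of 24 genes linked to Foxo, Klf2 and quiescence, 17 were higher (70.8%) and 2 lower (median 0.48). Ccng2, a cyclin that Foxo factors induce in resting cells, had 12.35, 12.74, 12.70 and 13.28 at 48 h, against 10.47, 10.12, 10.46 and 11.12 at 24 h. The level was 4.66-fold higher (2.22 ± 0.22 on the log2 scale, adjusted p = 0.000177, limma). Cdkn1b, the cyclin-dependent kinase inhibitor p27, had 11.51, 11.77, 11.90 and 12.25 at 48 h, against 10.49, 10.52, 10.70 and 10.79 at 24 h, and its groups were also apart (1.23 ± 0.13). The antiproliferative genes Btg1 and Tob1 changed by 0.98 ± 0.11 and 0.74 ± 0.08. Among 17 cyclins, kinases and inhibitors of the G1 phase, 7 were higher (41.2%) and 3 lower (17.6%), shares nearer to those of all genes. Those named were the inhibitor Cdkn2d (1.20 ± 0.19), the retinoblastoma gene Rb1 (0.56 ± 0.09) and the kinase Cdk2 (0.25 ± 0.03).

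Genes of DNA replication fell, though by little. Of 49 tested, 39 were lower at 48 h (79.6%) and none was higher, with a median of -0.20 and a largest fall of -0.47. Mcm2, a subunit of the replicative helicase, had 14.68, 14.69, 14.59 and 14.48 at 48 h, against 15.08, 14.97, 15.05 and 14.95 at 24 h. The groups did not overlap and the change was -0.40 ± 0.05 (adjusted p = 0.000221, limma). Orc2 of the origin recognition complex (-0.47 ± 0.05), the initiation factor Mcm10 (-0.29 ± 0.03) and the polymerase subunit Pold2 (-0.36 ± 0.05) were lower as well. Genes of mitosis did not move as a body. Of 40 tested, 16 were higher (40%) and 7 lower (17.5%), the median being 0.07. Cdc20, Ube2c and Espl1, which drive the exit from mitosis, were lower by -0.28 ± 0.03, -0.25 ± 0.04 and -0.22 ± 0.03, whereas the securin gene Pttg1 was higher by 0.28 ± 0.04. The fit over 16 libraries called 18 replication genes lower and 6 mitosis genes higher (36 and 15 without 24 h dex replicate 3), and the fit over all 32 libraries 8 mitosis genes higher (16 without it). With no filter on low values 9 mitosis genes were higher.

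Genes of ribosome production fell without exception. All 55 ribosome biogenesis genes tested were lower at 48 h (100%), with a median of -0.68 and a range of -1.02 to -0.25. Nat10, which acetylates ribosomal RNA, had 12.24, 12.19, 11.98 and 11.74 at 48 h, against 13.06, 13.04, 13.01 and 12.87 at 24 h. All 48 h values lay below all 24 h values and replicate 4 was lowest at both times (-0.95 ± 0.10, adjusted p = 0.000177, limma). Nol10 (-0.63 ± 0.07), Noc4l (-0.52 ± 0.05) and Mphosph10 (-0.46 ± 0.05), which act in maturation of the small ribosomal subunit, were lower too. The E-box CACGTG was in 4 of 50 matched promoters of this list (8%), close to the 8.48% of genes tested, and no promoter is shown. Ribosomal proteins themselves were lower in 61 of 68 cases (89.7%) and higher in none, but the median was only -0.15. Rpl19 (-0.20 ± 0.04) stands for the abundant members, whereas Rpl34 (-0.87 ± 0.13) and Rpl30 (-0.77 ± 0.13) had low levels for this family. Ribosomal protein genes have many near-identical copies in the genome, and how shared reads were counted was not tested. After quantile normalization only 5 ribosomal protein genes were called lower, against 11 in the fit over 16 libraries and 27 in the fit over all 32 (59 and 63 without 24 h dex replicate 3).

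Other genes that growing cells need were lower as well. Of 27 genes of polyamine and nucleotide synthesis, 22 were lower (81.5%) and 3 higher (median -0.44). Mthfd1, a folate enzyme that feeds purine and thymidylate synthesis, had 13.42, 13.38, 13.14 and 12.93 at 48 h, against 14.05, 13.99, 13.99 and 13.90 at 24 h, a change of -0.77 ± 0.09. The CTP synthase Ctps (-0.59 ± 0.07) and the purine enzyme Adsl (-0.53 ± 0.06) were lower. Sat1, which breaks polyamines down rather than making them, was higher (0.81 ± 0.09). All 31 proteasome genes were lower (100%), with a median of -0.25, for example the regulatory subunits Psmd3 (-0.43 ± 0.05) and Psmd7 (-0.42 ± 0.06), the ATPase Psmc3 (-0.32 ± 0.04) and the core subunit Psma2 (-0.25 ± 0.03). Of 52 nuclear genes for subunits of oxidative phosphorylation, 43 were lower (82.7%) and none higher, with a median of -0.21. Sdhd of complex II changed by -0.38 ± 0.04, Atp5c1 and Atp5h of the ATP synthase by -0.33 ± 0.03 and -0.32 ± 0.03, and Ndufb10 of complex I by -0.33 ± 0.03. Of 20 heat shock proteins and cytosolic chaperones, 14 were lower (70%) and 3 higher. Hspe1 (-0.61 ± 0.08), Hspa4 (-0.58 ± 0.07), the heat shock factor Hsf1 (-0.45 ± 0.06) and the co-chaperone Stip1 (-0.34 ± 0.04) were the members named. In the fit over 16 libraries, 16 proteasome and 24 oxidative phosphorylation genes were called lower (31 and 42 without 24 h dex replicate 3).

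**Figure D2:**
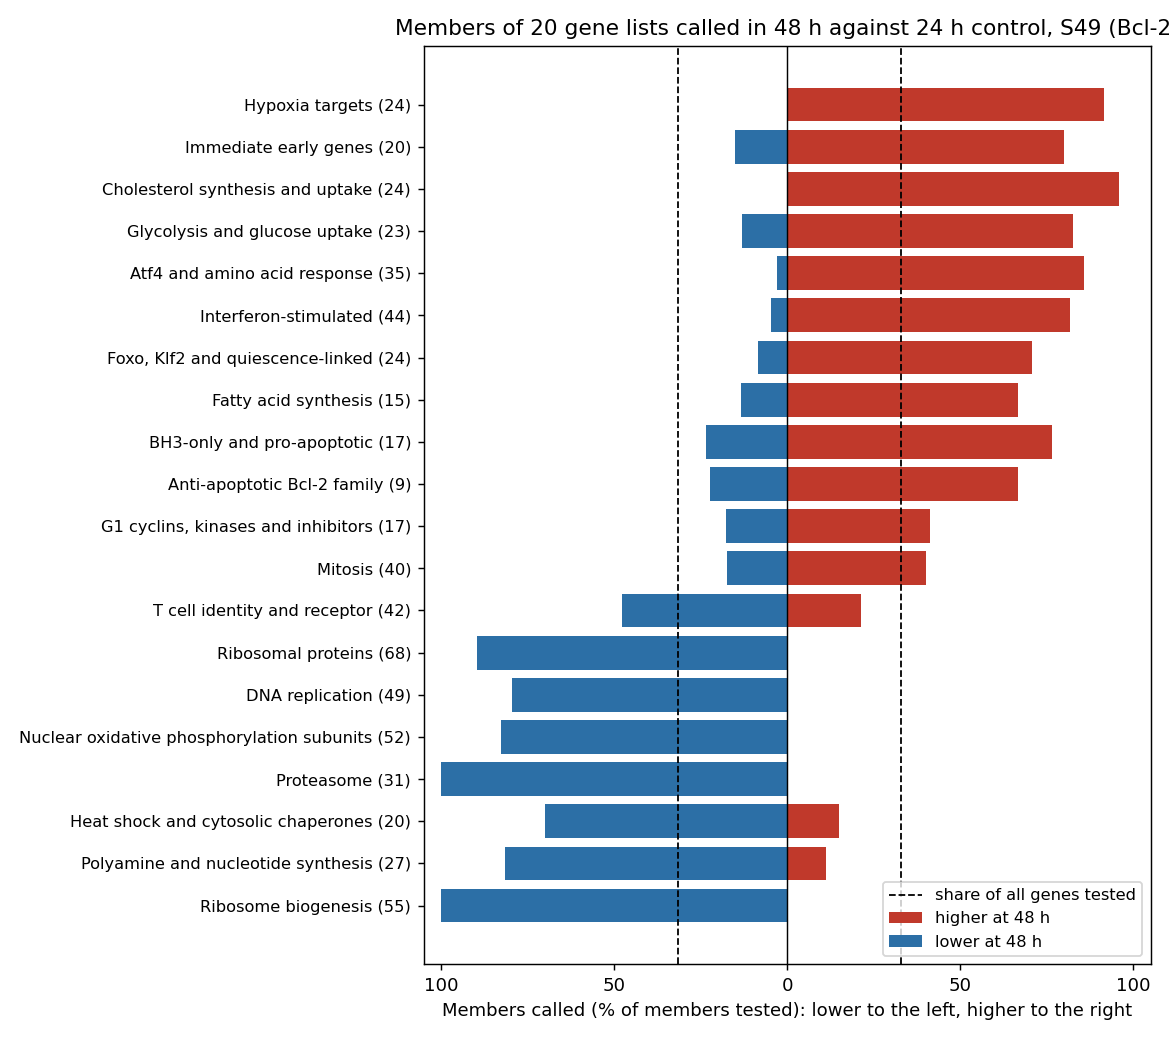
Share of the members tested (number in brackets) of 20 gene lists that were called higher (red, right) or lower (blue, left) at 48 h than at 24 h in S49 (Bcl-2) controls, in percent; dashed lines mark the shares of all genes tested, 33% higher and 31.4% lower. Hypoxia, cholesterol and Atf4 genes lie far to the right, and ribosome biogenesis and proteasome genes reach 100% on the left.

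**Figure D3:**
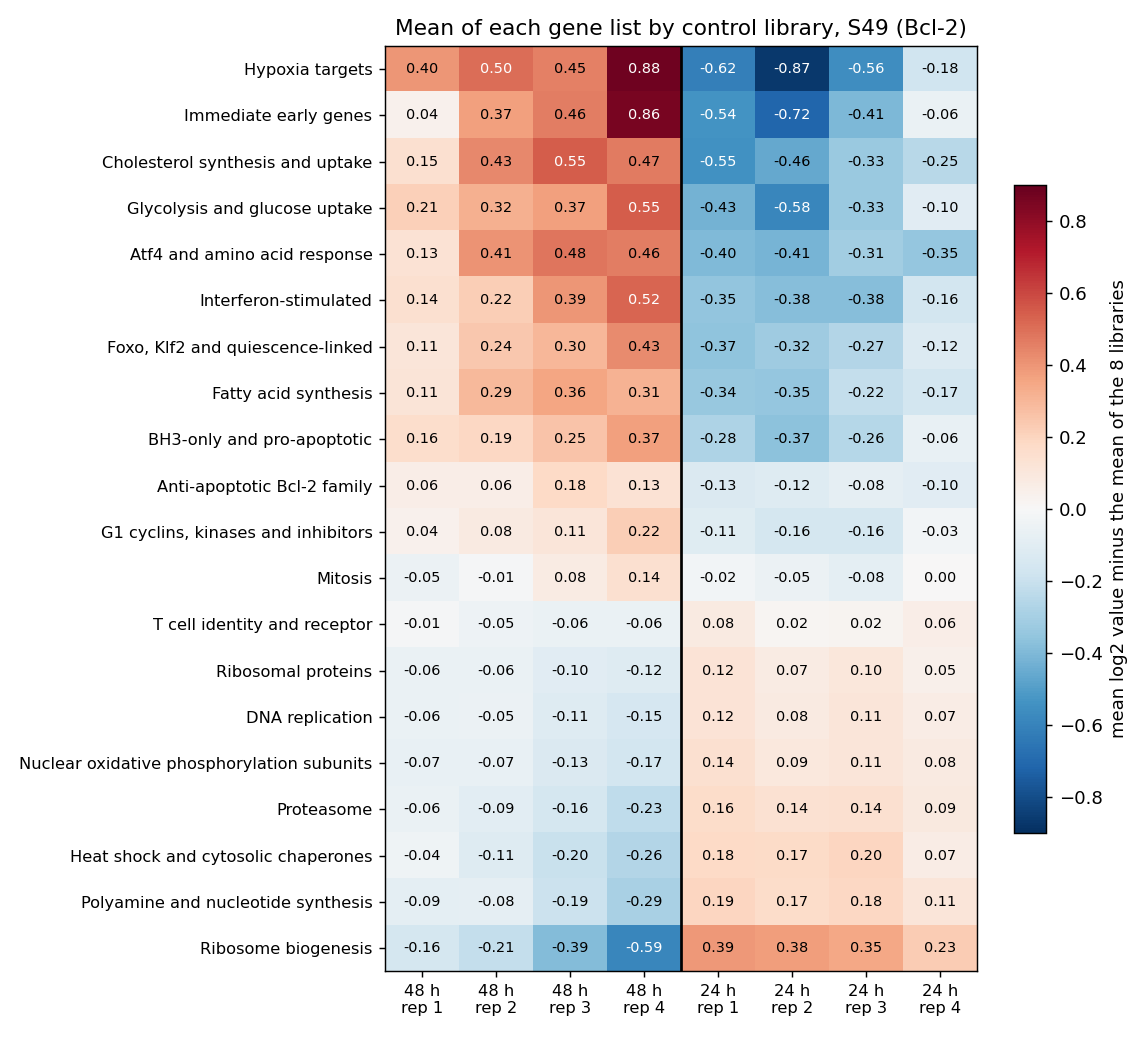
Mean log2 value of each list in each of the 8 control libraries, minus its mean over the 8 (colour and printed number). Hypoxia targets ranged from 0.40 to 0.88 in the 48 h libraries and from -0.87 to -0.18 in the 24 h libraries, with 24 h replicate 4 highest of its group.

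The list means by library show the same unevenness for many groups. For hypoxia targets they were 0.40, 0.50, 0.45 and 0.88 at 48 h, against -0.62, -0.87, -0.56 and -0.18 at 24 h. For ribosome biogenesis they were -0.16, -0.21, -0.39 and -0.59 at 48 h, against 0.39, 0.38, 0.35 and 0.23 at 24 h. For cholesterol genes, 48 h replicate 3 was highest, with 0.15, 0.43, 0.55 and 0.47 at 48 h, against -0.55, -0.46, -0.33 and -0.25 at 24 h. Of the 20 lists, mitosis was the one whose 48 h and 24 h libraries overlapped.

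Genes of T cell identity were lower in 20 of 42 cases (47.6%) and higher in 9 (21.4%). Runx1, a factor of the T lineage, had 12.58, 12.50, 12.34 and 12.27 at 48 h, against 13.27, 13.14, 13.12 and 12.95 at 24 h, a change of -0.70 ± 0.08. Lef1 (-0.54 ± 0.07) and Tcf7 (-0.35 ± 0.04), the factors at the end of the Wnt pathway, and the surface protein Thy1 (-0.31 ± 0.03) were lower as well. Each of these named genes moved by less than 1, and Tcf7 remained abundant, with means of 15.91 at 48 h and 16.27 at 24 h. They do not stand for the whole list, whose changes ran from -1.51 to 1.52 with a median of -0.09.

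Death regulators moved on both sides. Of 17 BH3-only and other pro-apoptotic genes, 13 were higher (76.5%) and 4 lower (median 0.29). Bnip3l, a mitophagy receptor that is itself a Hif target, had 12.41, 12.57, 12.72 and 13.05 at 48 h, against 11.12, 11.02, 11.25 and 11.83 at 24 h, a change of 1.39 ± 0.18. Bcl2l14 (1.21 ± 0.14) and the initiator caspase Casp8 (0.30 ± 0.03) were higher, and Cycs, cytochrome c of the respiratory chain, was lower (-0.46 ± 0.06). Bcl2l11, which encodes the BH3-only protein Bim, had 12.41, 12.56, 12.69 and 12.72 at 48 h, against 12.30, 12.30, 12.35 and 12.30 at 24 h. The groups were apart by a small margin, with a change of 0.28 ± 0.06 (adjusted p = 0.00234, limma). Of 9 anti-apoptotic genes, 6 were higher and 2 lower (3 higher in the fit over all 32 libraries, 5 without 24 h dex replicate 3). Mcl1, a short-lived Bcl-2 relative, was lower at 13.46, 13.42, 13.44 and 13.35, against 13.75, 13.64, 13.60 and 13.66 at 24 h. The caspase inhibitors Birc3 (0.58 ± 0.09) and Xiap (0.32 ± 0.04) and the caspase-8 decoy Cflar (0.41 ± 0.07) were higher.

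Bcl2 itself overlapped between the times. The reads counted under it gave 10.68, 10.88, 10.92 and 10.83 at 48 h, against 10.48, 10.64, 10.62 and 10.72 at 24 h. The change of 0.21 ± 0.07 passed with an adjusted p of 0.0159 (limma) but not without 48 h replicate 3 (0.18, adjusted p = 0.0506), without a filter (0.0711) or in the fit over all 32 libraries (0.14). Nr3c1, the glucocorticoid receptor, had 13.39, 13.55, 13.55 and 13.71 at 48 h, against 13.31, 13.32, 13.19 and 13.36 at 24 h. It was higher by 0.26 ± 0.06 (adjusted p = 0.00525, limma), a call that the fits over 16 and 32 libraries did not give (adjusted p = 0.296 and 0.126, and 0.000553 and 6.46e-05 without 24 h dex replicate 3). Mcl1 lost its call in the same fits (adjusted p = 0.211 and 0.0639, and 4.88e-05 and 4.58e-07 without that library).

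The largest single rises crossed these groups. The 12 largest ran from 2.20 to 2.90, taken from genes without overlap whose mean reached 6.66 (the log2 of 100 reads plus 1), passing over genes known by a model or clone name only. They were led by Rarg, a retinoic acid receptor, with 8.02, 8.44, 8.48 and 9.45 at 48 h, against 5.13, 5.19, 5.71 and 6.74 at 24 h. This is a 7.49-fold higher level, and replicate 4 was highest at both times. Id1, an inhibitor of helix-loop-helix factors, changed by 2.80 ± 0.45, and its 24 h libraries were spread from 4.56 to 6.95. Gipr, the receptor of an incretin hormone (2.68 ± 0.39), Cd53, a tetraspanin of leukocytes (2.49 ± 0.37), P2rx3, an ATP-gated channel (2.35 ± 0.19), and Glipr1 (2.20 ± 0.29) completed the 12 with Aldoc, Ndrg1, Ier3, Adm, Slc2a3 and Ccng2.

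The 12 largest falls were smaller, from -1.88 to -1.07. P2rx1, a second ATP-gated channel, led them with 8.38, 8.51, 7.62 and 7.00 at 48 h, against 10.10, 9.81, 9.67 and 9.45 at 24 h. Thus P2rx3 was higher and P2rx1 lower. Lack of overlap was a condition for entering the 12 rises and the 12 falls, so it is not a separate result. Cbfa2t3, a transcriptional corepressor of blood cells, had 8.45, 8.47, 7.99 and 7.80 at 48 h, against 9.93, 9.94, 9.64 and 9.68 at 24 h, a change of -1.62 ± 0.15. The secreted or matrix proteins Angptl2 (-1.43 ± 0.17) and Fbln2 (-1.30 ± 0.20), the sodium channel subunit Scn2b (-1.25 ± 0.16), the kinase subunit Pik3r5 (-1.24 ± 0.13), the thioesterase Acot5 (-1.21 ± 0.18) and Tnfrsf8, the receptor CD30 (-1.07 ± 0.13), were among the rest. Fam163b (-1.42 ± 0.19), Fsd1 (-1.29 ± 0.19), Tmem151b (-1.14 ± 0.11) and Wtip (-1.13 ± 0.18) made up the number.

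To ask whether this time course was particular to cells with Bcl-2, the same 24 h were compared in S49 (Neo) controls, which share no library with the S49 (Bcl-2) controls. Both lines were tested in 1 fit over the 16 control libraries. In it 34.3% of 11530 genes were higher at 48 h and 32.7% lower in S49 (Bcl-2) cells, against 33.4% higher and 30.7% lower in S49 (Neo) cells. The changes in the 2 lines correlated with an r of 0.938 (Pearson, a description over genes of the same libraries), and 90.1% had the same sign. Of 6599 genes called in both lines (85.4% of the S49 (Bcl-2) calls and 89.2% of the S49 (Neo) calls), 6592 had the same direction. The lists gave 22 of 24 hypoxia targets higher in each line (median 0.98 in S49 (Bcl-2), 0.97 in S49 (Neo)), 23 of 24 cholesterol genes in each (0.88 and 0.89) and 55 of 55 ribosome biogenesis genes lower in each (-0.68 and -0.60). Interferon-stimulated genes were higher in 36 of 44 cases in S49 (Bcl-2) cells and in 23 of 44 in S49 (Neo) cells, with medians of 0.56 and 0.28. The median difference of this list between the lines was 0.21, and 1 member was called.

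The difference between the lines was called in 9 of 11530 genes, of which 3 rose more in S49 (Bcl-2) cells (0.026%) and 6 rose less or fell more (0.052%). An unadjusted p under 0.05 (limma) was found in 707 of the 11530, but a share of 0.05 would reach it if no gene differed. With a replicate block 134 genes were called, and 19 after quantile normalization. In S49 (Bcl-2) cells Ttn, the giant muscle protein titin, averaged 10.20 at 48 h and 9.25 at 24 h, and in S49 (Neo) cells 7.56 at 48 h and 8.03 at 24 h. The difference was 1.43 ± 0.19 (adjusted p = 0.00504, limma), with opposite directions in the lines. Lgals9, the lectin galectin-9, had 10.44, 10.15, 10.13 and 10.25 in S49 (Bcl-2) cells at 48 h, against 11.54, 11.40, 11.13 and 11.14 at 24 h. S49 (Neo) cells averaged 8.28 for it at 48 h and 8.30 at 24 h, and the difference was -1.04 ± 0.14 (adjusted p = 0.00504, limma). Lama3, a laminin chain that was under the filter in S49 (Bcl-2) cells, differed by -1.35. In S49 (Bcl-2) cells it averaged 2.92 at 48 h and 2.85 at 24 h, and in S49 (Neo) cells 5.98 at 48 h and 4.55 at 24 h. Only these 3 genes were called in each of the 16 fits that left out 1 library. Dhx58, a sensor of viral RNA that interferon induces (0.85 ± 0.14), Pcdhb3, Gfi1, a repressor of blood cell genes (-0.28 ± 0.05), Catsperd and the overlapping pair Gng10 and Dnajc25, whose reads may be shared, were called in 2 to 6 of the 16. The count was 32 without S49 (Bcl-2) 48 h replicate 1, 18 without S49 (Bcl-2) 24 h replicate 4, 11 without S49 (Neo) 24 h replicate 4 or S49 (Neo) 48 h replicate 2, and 3 or 4 without any one of the other 12 libraries. Bcl2 changed by 0.21 in S49 (Bcl-2) cells and 0.57 in S49 (Neo) cells, a difference that was not called (-0.35 ± 0.10, adjusted p = 0.316).

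**Figure D4:**
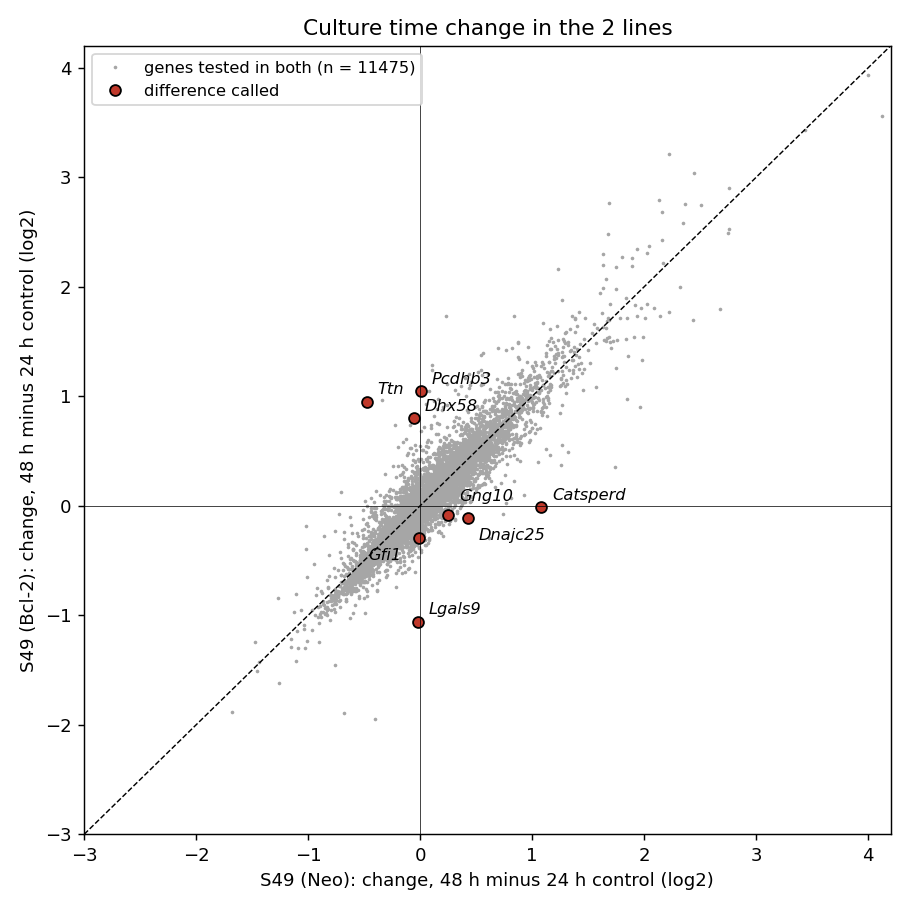
Change from 24 h to 48 h of control culture (log2, 48 h minus 24 h) in S49 (Bcl-2) cells (vertical axis) and S49 (Neo) cells (horizontal axis) for 11475 genes; the dashed line marks equal changes and red points the genes whose difference between lines was called. The points follow the line (r = 0.939 over these genes, which passed the filter in both fits), with Ttn, Pcdhb3 and Dhx58 above it and Lgals9 and Catsperd below; Lama3 is not drawn because it was under the filter in S49 (Bcl-2) cells.

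The same 24 h were also compared with dex, in 1 fit over the 16 S49 (Bcl-2) libraries. There 19.7% of 11592 genes were higher at 48 h than at 24 h with dex and 21.2% lower, against 21.4% and 18% with vehicle. The change over time differed between dex and control, as a term of 1 fit over 16 libraries, in 3173 genes, 11.1% more positive with dex and 16.3% more negative. One library, 24 h dex replicate 3, lay far from the other 3 of its group (an SD across genes of 0.765 from their mean, against 0.263 to 0.313 for the others). Without it 5800 of 11594 genes differed, 2657 more positive with dex and 3143 more negative. In that fit 28.1% of genes were higher and 31.1% lower with dex, against 33.7% and 31.6% with vehicle. The counts that follow come from these fits for both arms, first over 16 libraries and then, in brackets, over 15.

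Hypoxia targets were higher with time in 3 of 24 cases and lower in 4 with dex (2 and 4), against 22 and 0 in controls (22 and 0), and the difference was negative and called in 19 (23). Vegfa averaged 8.41 at 48 h and 8.60 at 24 h with dex, against 11.01 at 48 h and 9.69 at 24 h in controls (difference -1.50 ± 0.22, adjusted p = 0.000158, limma). Slc2a3 averaged 10.19 and 10.00 with dex at the same times, against 12.95 and 10.69 in controls. Of 24 cholesterol genes, 19 were lower with time under dex (21) and none higher, against 22 higher in controls (23). Hmgcs1 averaged 12.31 at 48 h and 12.84 at 24 h with dex, against 15.35 at 48 h and 14.12 at 24 h in controls (difference -1.76 ± 0.18, adjusted p = 1.07e-05, limma). Atf4 targets were lower in 18 of 35 cases under dex (18), against 26 higher in controls (29). Trib3 averaged 9.78 and 9.92 with dex at 48 h and 24 h, against 12.22 and 10.04 in controls.

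Growth-related groups followed other patterns. Ribosome biogenesis genes were lower in 34 of 55 cases with dex (49), against 50 in controls (55), and the difference was positive in 17 (41). Nat10 averaged 12.22 at 48 h and 12.55 at 24 h with dex, against 12.04 and 12.99 in controls (difference 0.63 ± 0.13, adjusted p = 0.00272, limma). DNA replication genes were lower in 46 of 49 cases with dex (49) and 18 in controls (36), with medians of -0.96 with dex and -0.20 in controls. Mitosis genes were lower in 36 of 40 cases with dex (40) and 0 in controls (4), with medians of -0.89 and 0.07. Ribosomal protein genes were higher with time in 21 of 68 cases with dex (59) and lower in 2 (2), against none higher and 11 lower in controls (59). Interferon-stimulated genes were higher in 15 of 44 cases with dex (17) and 26 in controls (35). Cflar, the caspase-8 decoy, had a difference of -0.80 ± 0.15 and the inhibitor Cdkn2d of -1.53 ± 0.25.

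The largest differences in single genes were of both kinds. Cbfa2t3 averaged 7.50 at 48 h and 5.94 at 24 h with dex, against 8.18 at 48 h and 9.80 at 24 h in controls, so that it was higher with time in one arm and lower in the other (difference 3.18 ± 0.21, adjusted p = 3.28e-07, limma). Angptl7, a secreted protein, averaged 12.82 at 48 h and 8.65 at 24 h with dex, and stayed near 4 in controls, at 4.12 and 4.03. Reps2 (3.02 ± 0.49) and Grasp (2.63 ± 0.18) likewise differed through their rise with dex. Gipr (-2.93 ± 0.86), Aldoc (-2.77 ± 0.62), Gbp2 (-2.73 ± 0.33) and Fos (-2.67 ± 0.67) were the largest negative differences among genes called whose mean reached 6.66, passing over 1 known by a model name only (-4.24), each higher with time in controls. Aldoc averaged 7.68 at 48 h and 7.68 at 24 h with dex, against 10.98 at 48 h and 8.21 at 24 h in controls.

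**Figure D5:**
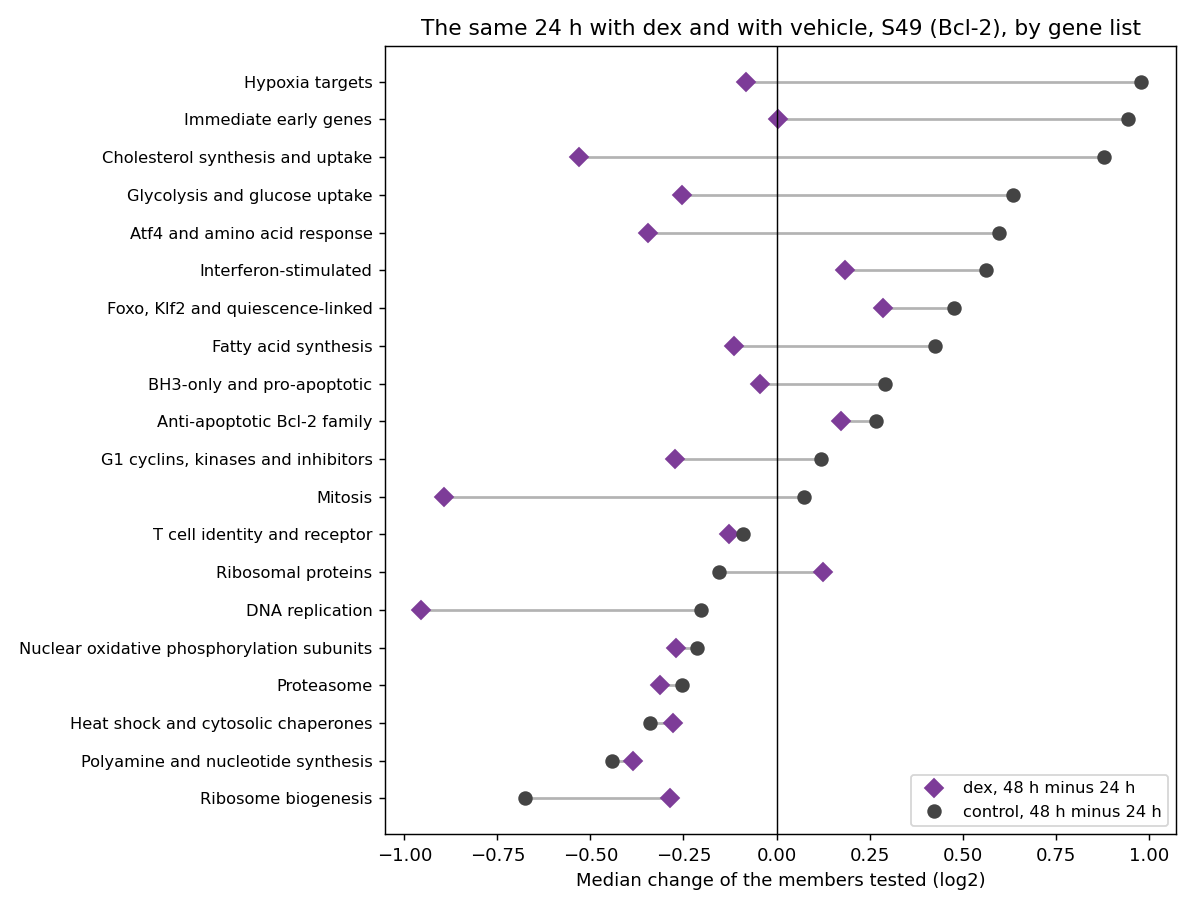
Median change of the members of 20 gene lists between 24 h and 48 h (log2, 48 h minus 24 h) in S49 (Bcl-2) cells. Purple diamonds give dex, from the fit over 16 libraries, and dark circles vehicle, from the fit over the 8 controls. Members tested differ for some lists, such as fatty acid synthesis (14 with dex, 15 with vehicle). Cholesterol genes lay at -0.53 with dex and 0.88 with vehicle, mitosis genes at -0.89 and 0.07, and proteasome genes at -0.31 and -0.25.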

How the data were processed

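RNA was measured in 32 libraries, 8 of them the S49 (Bcl-2) controls described here. The authors aligned reads to mm10 with STAR, counted them with featureCounts and used DESeq2 to normalize. What they deposited is a single table with a log2 normalized value for each of 24538 genes in each library, from -2.376 to 20.15. The transform behind these values is not given in the sources used here, and whole reads cannot be recovered from them. The paper gives depth only as a range of reads per sample, so the depth of each library is unknown. Negative values cannot be the log2 of reads plus 1, so limits given as reads plus 1 are only levels on the deposited scale and not read counts. Fold changes are likewise differences on that scale. In all, 0 columns were left unmatched and 0 pairs of libraries were identical. In 26 rows a date stands in place of the symbol, and these are not named.

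Group means were fitted to them by limma 3.58.1 (R 4.3.3), whose moderated spread was allowed to follow the mean. The 48 h against 24 h comparison used the 8 control libraries, comparisons with S49 (Neo) cells the 16 controls of both lines, and those with dex the 16 S49 (Bcl-2) libraries. Fits were tested on simulated data. The 42 gene lists, the members and the rules were chosen with earlier results of these data known, and lists were counted, not tested. Only 20 of these lists are described and drawn. Of the others in S49 (Bcl-2) controls, 14 of 19 glucocorticoid receptor targets were higher at 48 h and 3 lower (median 0.75). Genes of protein folding in the endoplasmic reticulum were higher in 12 of 33 cases and lower in 17 (-0.16). For p53 targets, 9 of 23 were higher and 8 lower (0.07). Lists can share members, such as Cdkn1b in those of Foxo and of G1. The genes named were the 12 largest rises and falls with a mean of at least 6.66, no overlap and an adjusted p under 0.05, up to 4 members of each list described with the smallest p, the 4 largest differences in each direction between lines and between dex and control, and Bcl2, Bcl2l11, Mcl1, Nr3c1 and Myc, passing over genes known by a model or clone name only, and a gene the rule named is not reported here. Pcdhb3, Catsperd and Lama3, the genes that show the difference from dex in each group and the 4 motifs with a printed promoter and the E-box were chosen after values were seen. Promoters are from RefSeq (GRCm38.p6). Alternatives changed the filter, normalization, spread, libraries in the fit, GC content, threshold and replicate block, and left out each library in turn. Fits without 24 h dex replicate 3 for the control comparison, and counts of both arms or lines from 1 fit, were added after seeing the data.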

Additional observations from a re-analysis of the deposited data

Results flagged for a closer look

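Of 226 groups of 4 libraries examined (113 named genes at 48 h and 24 h), 10 held a library far from the other 3. By chance the rule would flag 5% or so of unselected groups. These genes were chosen in large part for small p or lack of overlap, so their share cannot be judged against that. In 6 of the 10 the library was 24 h replicate 4, the 24 h library nearest to the 48 h libraries. It was high for Cd53 (8.47, the others 6.96 to 7.13), Glipr1 (7.40) and Gbp2 (7.04), and low for Fam163b (11.89), Tmem151b (9.14) and Hsf1 (11.70). The other 4 were Ndrg1 in 48 h replicate 4 (13.14), Eif4ebp1 in 48 h replicate 1 (12.91), Bcl2l11 in 24 h replicate 3 (12.35) and Cflar in 24 h replicate 1 (9.94).

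The change with time differed between S49 (Bcl-2) and S49 (Neo) controls in 9 genes. The differences were 1.43 for Ttn, 1.04 for Pcdhb3, 0.85 for Dhx58, -0.28 for Gfi1, -0.34 for Gng10, -0.54 for Dnajc25, -1.04 for Lgals9, -1.10 for Catsperd and -1.35 for Lama3.

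Between dex and control the change with time differed in 3173 genes. Among those named, the dex minus control difference was positive for Angptl7 (4.09), Cbfa2t3 (3.18), Reps2 (3.02), Grasp (2.63) and Nat10 (0.63). It was negative for Gipr (-2.93), Aldoc (-2.77), Gbp2 (-2.73), Fos (-2.67), Trib3 (-2.33), Slc2a3 (-2.07), Hmgcs1 (-1.76), Cdkn2d (-1.53), Vegfa (-1.50) and Cflar (-0.80).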

How the results depend on the processing

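Counts of calls for time in S49 (Bcl-2) controls stayed within 1.5 times of 7420 except in the fit over 16 libraries (4567; 7574 without 24 h dex replicate 3) and with a change of at least 0.5 required (1740). Leaving out 1 library gave 6730 to 7546 genes, the lower count without 24 h replicate 1. The share of calls that were higher was 51.2%, against 43% after median centring and 45.3% after quantile normalization. Same-numbered libraries correlated at 0.0431 to 0.623 in their deviations, against a mean of -0.089 between different numbers. At each time 2 of 4 correlated best with their own number. Whether same-numbered libraries belong together is not given, and the main fit did not take them as pairs. With a replicate block 7795 genes were called, and 134 for the difference between lines. That difference was called in 3 genes with no filter, 19 after quantile normalization and 3 to 32 with 1 library left out. The dex minus control difference ran from 2541 to 5800 genes with 1 library left out. Of 2287 values of the 109 called named genes under 21 alternatives, 2263 kept call and direction, 24 lost the call and 0 reversed. Dnajc25 and Gng10 gained a call in some. Most losses were in the fits over 16 and 32 libraries, and without 24 h dex replicate 3 these genes kept the call except Bcl2 (adjusted p = 0.0983 over 31 libraries, limma). Espl1 and Rpl19 also lost the call after quantile normalization (adjusted p = 0.145 and 0.277, limma). GC correction gave 7527 genes. Precision is limited by 4 libraries per group, and the depth of each library is unknown.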
